A study of Homo sapiens with 29 samples.

Results

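STC2, SESN2, TRIB3 and VEGFA are 4 genes that the stress transcription factor ATF4 is known to induce. They were found on the arrays by their gene symbols, with 1 probe set each, so that 4 of 14884 named genes are described, and all 4 were among the 6529 genes bright enough to be tested. The cells were HepG2, an established human hepatocellular carcinoma line grown for 6, 12, 18, 24 or 48 h with CCL, the herb Cratoxylum cochinchinense Lour, or without it, plus untreated cells at 0 h. The 11 groups held 2 or 3 arrays each, numbered as sets 1 to 3 in the labels: 13 arrays of CCL cells and 16 of untreated cells. No group was labelled as genetically altered, and the labels of the 5 CCL groups differ in time and set number only. The CCL groups of 24 and 48 h hold no set 3 array. The CCL dose and its solvent are not given in the sources used here. All values are deposited log2 expression levels, in which a difference of 1 is a doubling of the signal, and levels are compared between arrays for a gene, never between genes. Each array measured a pool of cultured cells, so less RNA per cell and fewer expressing cells cannot be told apart.

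ATF4 is the central factor of the integrated stress response. Kinases that sense amino acid shortage, unfolded protein in the endoplasmic reticulum (ER), viral RNA or heme shortage phosphorylate the translation factor eIF2alpha, which lowers most protein synthesis while ATF4 is translated more. ATF4 then induces genes of amino acid supply and of feedback. Among the 4 genes, STC2 encodes a secreted stanniocalcin glycoprotein, SESN2 a leucine-binding sestrin that restrains the growth kinase mTORC1, TRIB3 a pseudokinase that binds AKT and ATF4, and VEGFA the secreted growth factor of blood vessels. VEGFA is also a classical target of the hypoxia factor HIF, and SESN2 of p53 and NRF2.

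The 4 probe sets belong to genes at chr5:173314723-173328414 (STC2, probe set 17002898), chr1:28259518-28282491 (SESN2, probe set 16661544), chr20:380760-397559 (TRIB3, probe set 16910609) and chr6:43770211-43786487 (VEGFA, probe set 17009093), all in the RefSeq annotation of GRCh38.p14. The RefSeq promoter table held windows for STC2, SESN2 and TRIB3, covering 250 bases before and 50 bases after an annotated start site. The 250 bases before the start are printed because the 3 genes share a known regulator and were each called higher in CCL cells in the mean over the times, each in the direction of its gene, for STC2 at chr5:173328415-173328664 (minus strand), SESN2 at chr1:28259268-28259517 (plus strand) and TRIB3 at chr20:381045-381294 (plus strand). Capitals mark matches, on either strand, to any of the 5 motifs searched.
STC2: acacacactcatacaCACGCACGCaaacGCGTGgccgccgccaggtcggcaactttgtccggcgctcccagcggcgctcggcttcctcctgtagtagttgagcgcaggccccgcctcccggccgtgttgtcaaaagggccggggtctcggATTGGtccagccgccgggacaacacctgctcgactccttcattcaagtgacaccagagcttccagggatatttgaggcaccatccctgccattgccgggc
SESN2: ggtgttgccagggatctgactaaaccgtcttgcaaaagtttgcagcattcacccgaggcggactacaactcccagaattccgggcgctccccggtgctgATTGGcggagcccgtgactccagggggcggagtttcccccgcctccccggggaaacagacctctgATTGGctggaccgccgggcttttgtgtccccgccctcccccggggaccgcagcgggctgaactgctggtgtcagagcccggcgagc
TRIB3: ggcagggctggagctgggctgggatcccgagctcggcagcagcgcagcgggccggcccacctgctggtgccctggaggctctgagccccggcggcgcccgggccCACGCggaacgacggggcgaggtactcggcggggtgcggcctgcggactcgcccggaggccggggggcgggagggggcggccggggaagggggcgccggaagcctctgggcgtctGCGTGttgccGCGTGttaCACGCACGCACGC
The motifs were TGATGNAA (the C/EBP-ATF element that ATF4 dimers bind), ACGTG (a core of the HIF element), its variant core GCGTG, TGACNNNGC (the core of the NRF2 element) and CCAAT (the box bound by NF-Y), and overlapping matches were counted separately. TGATGNAA was in none of the 3 genes' windows, against 3.62% of all 35116 windows of this length, and ACGTG in none either, against 21.4%. GCGTG occurred in STC2 at positions -235, -231 and -222 from the start site, the first and second sharing a base, and 6 times in TRIB3, of which 5 lay between positions -31 and -1. Of all windows, 36.5% hold GCGTG. The box CCAAT occurred in SESN2 at positions -151 and -86 and in STC2 at -100, a motif held by 34.6% of windows. TGACNNNGC occurred after the start site in STC2 (positions 20 to 28) and TRIB3 (41 to 49), beyond the printed bases, and is held by 13.3% of windows. The 3 RefSeq windows of TRIB3 overlap and hold the same 7 matches each. They lie inside the TRIB3 gene span, which begins at chr20:380760, and the bases before that position were not searched. Of the tested genes of the 3 lists of ATF4 factors, targets and amino acid enzymes described further on, 15 had a promoter window. For 3 of these (ATF3, JDP2 and ASNS) a window held TGATGNAA. This count is by gene, where a gene may have several windows, and the share of 3.62% is by window. These matches describe letters only.

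Before the results, 6 of the 29 arrays stood apart. They hold between 5181 and 6868 distinct values over 53617 probe sets, against 46408 to 46882 on the other 23, and are called few-value arrays here. They are set 1 of untreated 18 h, untreated 24 h, CCL 6 h, CCL 24 h and CCL 48 h, and set 3 of CCL 18 h. Array medians ran from 2.29 (untreated 18 h, set 1) to 3.39 (CCL 18 h, set 3), so the lowest and the highest both fall at 18 h, in opposite arms. Over all tested genes the median CCL effect was 0.41 at 18 h and -0.26 at 48 h as deposited, and 0.0019 and -0.048 after quantile normalization, which gives all arrays the same distribution. Results for the 4 genes are therefore given as deposited, after quantile normalization and without the few-value arrays. Of the hepatocyte markers 6 of 7 were measured and tested, with ALB reaching 12.11, AFP 11.06 and APOB 11.93. The measured markers of other cell types stayed under the filter, with highest levels of 4.72 for the leukocyte gene CD14 and 3.57 and 3.22 for the endothelial genes PECAM1 and VWF, and no fibroblast marker had a named probe set.

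Over the 5 times together, all 4 genes were higher in CCL cells. The mean of the 5 CCL effects, in log2 units ± standard error of the limma model over 29 arrays, was 1.21 ± 0.13 for STC2, 0.68 ± 0.13 for TRIB3, 0.65 ± 0.17 for VEGFA and 0.56 ± 0.10 for SESN2. These are ratios of 2.31, 1.61, 1.57 and 1.47. The adjusted p (Benjamini-Hochberg over the 6529 genes) was 1.83e-07 for STC2, 0.000148 for SESN2, 0.000479 for TRIB3 and 0.00645 for VEGFA. A gene is called where this p is under 0.05, and 13.6% of all tested genes were called higher in the mean and 11% lower. After quantile normalization the 4 means were 1.18, 0.66, 0.63 and 0.54 in the same order of genes, all called, against 16.5% of all genes called higher. Without the few-value arrays they were 0.95 for STC2, 0.60 for SESN2, 0.53 for TRIB3 and 0.45 for VEGFA, again all called, against 9.71% of all genes called higher and 13.8% lower. Among the alternatives run, the call of VEGFA was lost only when limma weighted the arrays by their fit (mean 0.48, adjusted p = 0.0741).

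**Figure D1:**
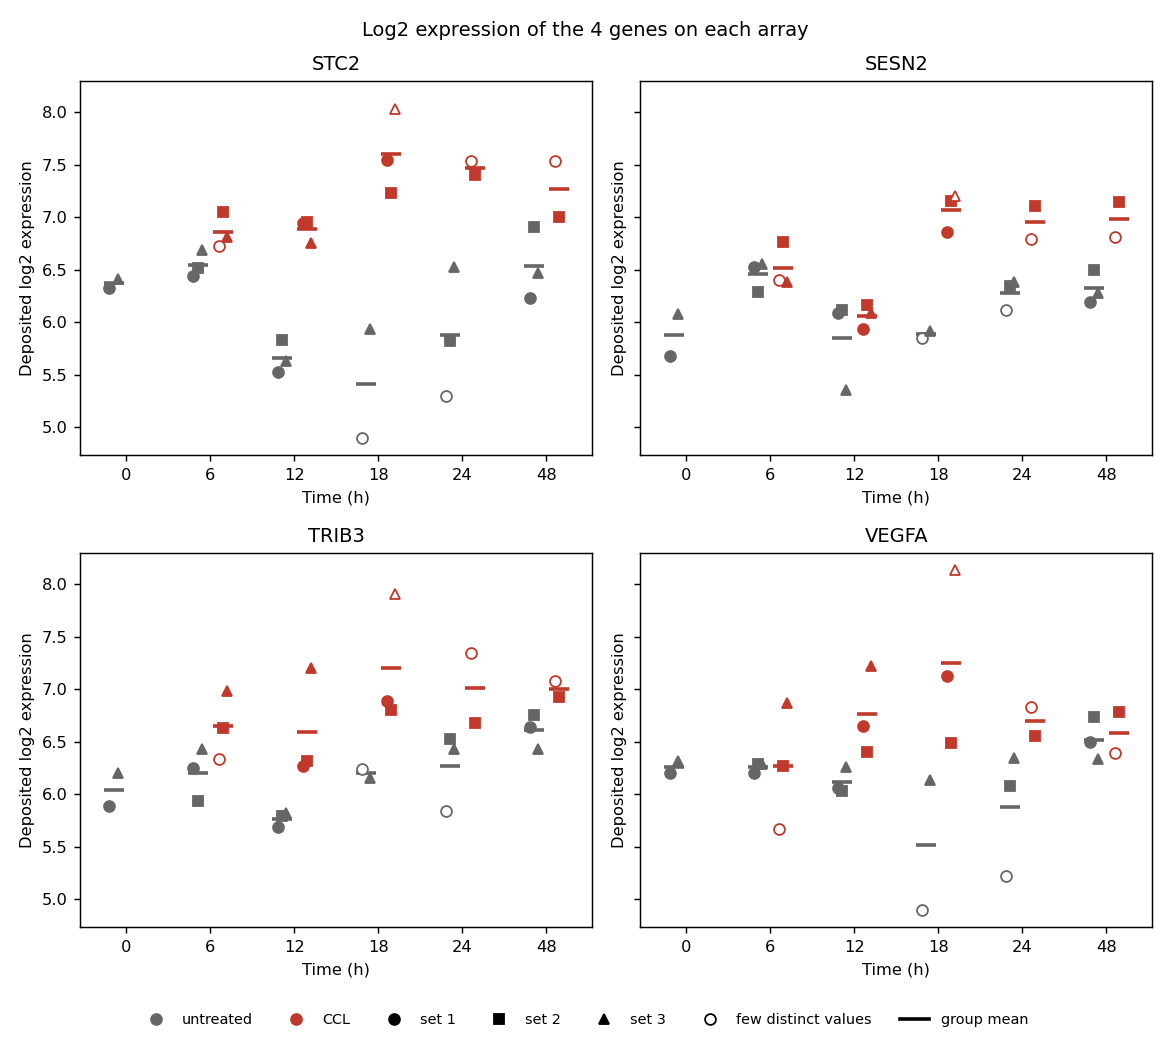
Deposited log2 expression (vertical axis) of the 4 genes on each of the 29 arrays against time in hours, with untreated cells in grey and CCL cells in red. Circles, squares and triangles are sets 1, 2 and 3, open symbols are the 6 few-value arrays and bars are group means. At 18 h the 3 CCL arrays lie above both untreated arrays for each gene, and STC2 and VEGFA share the lowest untreated value, 4.90.

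STC2 had the largest mean change of the 4, and it was the gene whose CCL arrays lay above the untreated arrays at every time. Untreated STC2 read 6.33 and 6.42 at 0 h (sets 1 and 3) and 6.44, 6.52 and 6.69 at 6 h (sets 1 to 3), and CCL cells at 6 h read 6.72, 7.05 and 6.81. The arms were thus separated at 6 h by as little as 0.032, and the difference of 0.31 ± 0.28 was not called. At 12 h untreated cells read 5.53, 5.83 and 5.63 and CCL cells 6.95, 6.96 and 6.76. The arms were well apart, and the difference of 1.22 ± 0.28 was called (limma, adjusted p = 0.0204). From 6 h to 12 h the group means were 6.55 and 5.66 in untreated cells and 6.86 and 6.89 in CCL cells as deposited, and 6.42 and 5.82 against 6.80 and 7.04 after quantile normalization. The 6 arrays of 12 h, in both arms, have medians of 2.51 to 2.54 against 2.65 to 3.03 at 6 h, and how far this moves levels between times was not tested.

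At 18 h the 2 untreated arrays (sets 1 and 3) read 4.90 and 5.93 for STC2 and the 3 CCL arrays 7.54, 7.23 and 8.04. At 24 h untreated cells read 5.29, 5.82 and 6.53 (sets 1 to 3) and CCL cells 7.54 and 7.40 (sets 1 and 2). At 48 h untreated cells read 6.23, 6.91 and 6.47 and CCL cells 7.54 and 7.00. The lowest untreated values of 18 and 24 h are both on few-value arrays, as is the highest CCL value. The differences were 2.19 ± 0.31 at 18 h (95% interval 1.56 to 2.82, adjusted p = 8.85e-05, limma), 1.59 ± 0.31 at 24 h (adjusted p = 0.00424) and 0.73 ± 0.31 at 48 h, which was not called (adjusted p = 0.137).

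The STC2 effect at 18 h was 1.77 after quantile normalization (adjusted p = 0.000131) and 1.45 without the few-value arrays (adjusted p = 0.0229), and it was also called without any 1 array (1.67 to 2.71). It was not called with weighted arrays (2.01, adjusted p = 0.0781). At 12 h no compared array is a few-value array, and the call was kept without those arrays (adjusted p = 0.000516) and after quantile normalization (1.22, adjusted p = 0.0025). It was lost without either of untreated sets 1 and 3 or any of the 3 CCL arrays of 12 h, with effects from 1.16 to 1.29 and adjusted p up to 0.11. At 24 h the effect without the few-value arrays was 1.23 (adjusted p = 0.0488), and the call was lost without CCL set 1 alone (adjusted p up to 0.0972). At 48 h the gene was called after quantile normalization (0.97, limma, adjusted p = 0.0133). The effect was 0.46 without the few-value arrays, a fit with 1 CCL array of 48 h. After quantile normalization the CCL array lay above the untreated one by 1.70 in set 1 and by 0.14 in set 2. The CCL array of set 1 is a few-value array.

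SESN2 showed the latest separation of the 4. Untreated SESN2 read 5.68 and 6.08 at 0 h and 6.53, 6.29 and 6.56 at 6 h, and CCL cells at 6 h read 6.40, 6.77 and 6.38. At 12 h untreated cells read 6.09, 6.12 and 5.36 and CCL cells 5.93, 6.17 and 6.09. The arms overlapped at both times, with differences of 0.058 ± 0.21 and 0.21 ± 0.21 that were not called.

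At 18 h SESN2 read 5.85 and 5.92 in untreated cells and 6.86, 7.15 and 7.21 in CCL cells. At 24 h it read 6.11, 6.34 and 6.39 in untreated cells and 6.80 and 7.11 in CCL cells. At 48 h it read 6.20, 6.50 and 6.28 in untreated cells and 6.82 and 7.15 in CCL cells. From 18 h on, every CCL array of SESN2 read 6.80 or more and every untreated array 6.50 or less, without overlap at any of the 3 times. SESN2 rose at 18 h by 1.19 ± 0.23 (adjusted p = 0.0018, limma), and the differences of 0.67 ± 0.23 at 24 h (adjusted p = 0.12) and 0.66 ± 0.23 at 48 h (adjusted p = 0.0776) were not called. Quantile normalization lowered the 18 h effect to 0.80 ± 0.21 (adjusted p = 0.0267, limma). It raised that of 48 h to 0.92 ± 0.21 (adjusted p = 0.00833), so that both were called. With median centring the 18 h effect of 0.71 was not called (adjusted p = 0.0891) and that of 48 h was (0.79, adjusted p = 0.0333). The 18 h call was also lost with only the compared arrays (adjusted p = 0.14) and with array weights (adjusted p = 0.313). It was kept with set as a block. At 48 h the effect was 0.83 without the few-value arrays, which leaves 1 CCL array. Without the few-value arrays the 18 h effect was 1.09 ± 0.28 and was not called (adjusted p = 0.0705), nor was it without the untreated set 1 array of 18 h alone (adjusted p = 0.0762).

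TRIB3 differed by less than STC2, and its CCL arrays of set 3 lay well above sets 1 and 2. Untreated TRIB3 read 5.89 and 6.20 at 0 h and 6.25, 5.94 and 6.43 at 6 h, and CCL cells at 6 h read 6.34, 6.63 and 6.98. At 12 h untreated cells read 5.69, 5.79 and 5.82 and CCL cells 6.27, 6.32 and 7.20. The arms overlapped at 6 h and were separated at 12 h, where the difference of 0.83 ± 0.28 was not called (adjusted p = 0.179). Without the few-value arrays, none of which is of 12 h, the same difference had a smaller error and was called (0.83 ± 0.20, adjusted p = 0.0132, limma).

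At 18 h TRIB3 read 6.24 and 6.16 in untreated cells and 6.89, 6.80 and 7.91 in CCL cells. At 24 h it read 5.84, 6.53 and 6.43 in untreated cells and 7.35 and 6.68 in CCL cells. At 48 h it read 6.64, 6.76 and 6.43 in untreated cells and 7.08 and 6.92 in CCL cells. The arms did not overlap at these 3 times, by a margin of 0.15 at 24 h. TRIB3 rose at 18 h by 1.00 ± 0.31 (adjusted p = 0.0368, limma), and the differences of 0.75 ± 0.31 at 24 h and 0.39 ± 0.31 at 48 h were not called. The 18 h call ended after quantile normalization (0.61 ± 0.30, adjusted p = 0.258), without the few-value arrays (0.69 ± 0.30, adjusted p = 0.356) and without CCL set 3 or either untreated array alone (adjusted p up to 0.389). In the fit that tested every probe set instead of 1 for each named gene, its adjusted p was 0.0556.

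VEGFA spread widely between CCL arrays at 6 and 18 h. Untreated VEGFA read 6.21 and 6.32 at 0 h and 6.20, 6.29 and 6.29 at 6 h, and CCL cells at 6 h read 5.66, 6.27 and 6.87. At 12 h untreated cells read 6.06, 6.03 and 6.26 and CCL cells 6.65, 6.40 and 7.23. The 6 h CCL arrays lay on both sides of the untreated ones, with a difference of 0.0093 ± 0.36, and at 12 h the arms did not overlap, with a difference of 0.64 ± 0.36 (adjusted p = 0.54).

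At 18 h VEGFA read 4.90 and 6.14 in untreated cells and 7.13, 6.49 and 8.14 in CCL cells. At 24 h it read 5.22, 6.08 and 6.34 in untreated cells and 6.83 and 6.55 in CCL cells. At 48 h it read 6.50, 6.74 and 6.33 in untreated cells and 6.39 and 6.78 in CCL cells. The arms were separated at 18 and 24 h and overlapped again at 48 h. VEGFA rose at 18 h by 1.73 ± 0.40 (adjusted p = 0.00669, limma), against 0.81 ± 0.40 at 24 h and 0.066 ± 0.40 at 48 h, neither called. Its 18 h call held after quantile normalization (1.31 ± 0.31, adjusted p = 0.0151), and was lost without the few-value arrays (0.67 ± 0.31, adjusted p = 0.398) and without untreated set 1 (1.11) or CCL set 3 of that time alone (adjusted p up to 0.499). The untreated value of 4.90 is on a few-value array and equals that of STC2 on the same array, so 2 of the 5 arrays behind the 18 h difference are few-value arrays.

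**Figure D2:**
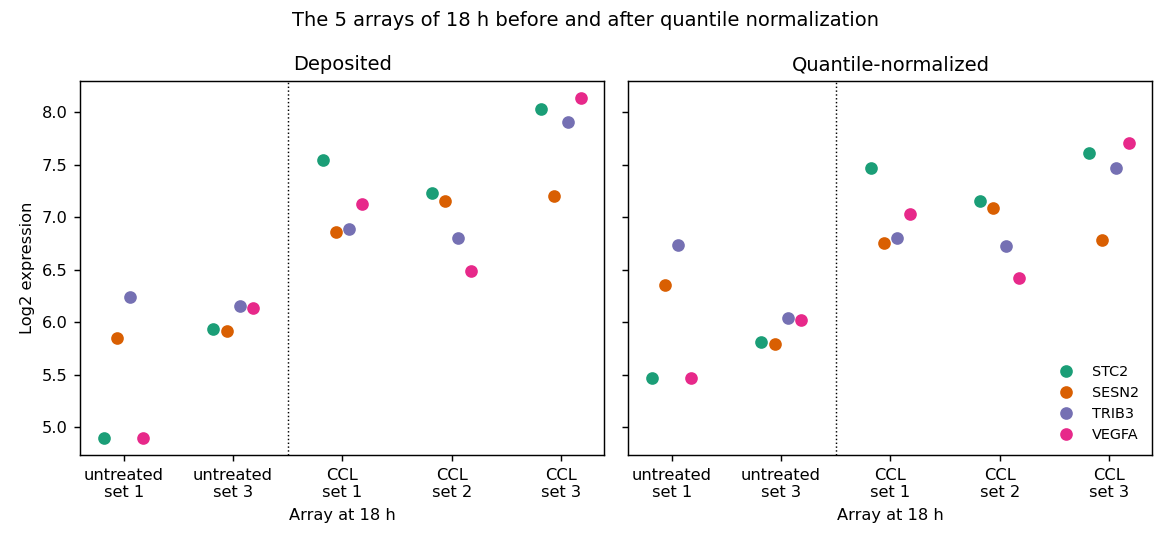
Log2 expression (vertical axis) of the 4 genes on the 5 arrays of 18 h, as deposited (left) and after quantile normalization over 29 arrays (right), with untreated arrays left of the dotted line. After normalization TRIB3 on untreated set 1 (6.74) reaches the lowest CCL array (6.73), and the other 3 genes stay separated.

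The 5 arrays of 18 h changed as follows on quantile normalization. STC2 read 5.47 and 5.81 in untreated cells and 7.47, 7.16 and 7.61 in CCL cells. SESN2 read 6.36 and 5.79 in untreated cells and 6.76, 7.09 and 6.78 in CCL cells. VEGFA read 5.47 and 6.02 in untreated cells and 7.03, 6.42 and 7.71 in CCL cells. For these 3 genes all CCL arrays remained above both untreated arrays, a pattern that 18.2% of all tested genes showed after normalization. TRIB3 read 6.74 and 6.04 in untreated cells and 6.80, 6.73 and 7.47 in CCL cells, so that its arms overlapped. On untreated set 1, whose median was lowest, all 4 genes moved up, and on CCL set 3, whose median was highest, all 4 moved down.

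Counted by time, limma called none of the 4 genes at 6 h, STC2 at 12 h, all 4 at 18 h, STC2 at 24 h and none at 48 h. The share of all tested genes called higher was 0.276% at 6 h, 1.04% at 12 h, 12.3% at 18 h, 2.54% at 24 h and 1.33% at 48 h. At an unadjusted p under 0.05, none of the 4 and 527 genes in all passed in either direction at 6 h, and 2 of the 4 and 1672 genes at 48 h. After quantile normalization the counts were 0, 1, 3, 1 and 2 of 4, against 0.904%, 1.78%, 3.43%, 4.53% and 5.18% of all genes. With the few-value arrays left out the counts were 0, 2, 1, 1 and 0, against 1.42%, 4.32%, 0.735%, 0.796% and 0.368% of all genes. That fit leaves 1 array in each of untreated 18 h, CCL 24 h and CCL 48 h, which is assumed to vary like the other groups.

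Separation of the arms, with all CCL arrays above all untreated arrays as deposited, was seen at 6 h for 1 of the 4 genes (STC2), at 12 h for 3, at 18 h for 4, at 24 h for 4 and at 48 h for 3. The share of all tested genes separated in this direction was 6.23% at 6 h, 11.8% at 12 h, 32.5% at 18 h, 13.9% at 24 h and 10.3% at 48 h. Set against the untreated array of the same set and time, STC2 and TRIB3 were higher in CCL cells in 12 of 12 pairs, with differences of 0.090 to 2.65 and 0.080 to 1.75. Of all genes 4.1% were higher in all 12 pairs. SESN2 was higher in 9 of 12 and VEGFA in 9 of 12 as deposited.

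On CCL arrays of the earlier times TRIB3 and VEGFA were highest in set 3. Both read highest on set 3 in CCL cells at 6, 12 and 18 h, before and after quantile normalization, while STC2 and SESN2 each did so at 1 of these 3 times as deposited. In untreated cells at these times set 3 was highest at 2 of 3 times for STC2, SESN2 and TRIB3 and at 3 of 3 for VEGFA as deposited, and after quantile normalization at 2, 0, 2 and 2 in this order of genes. Of these groups, untreated 18 h holds sets 1 and 3 only, and its set 1 is the few-value array with the lowest median. At untreated 48 h set 3 was instead the lowest for TRIB3 (6.43) and VEGFA (6.33). There is no set 3 array of CCL cells at 24 or 48 h, so its part in the smaller late differences of these genes was not tested. With all set 3 arrays left out, the TRIB3 effect at 18 h was 0.60 (adjusted p = 0.171) and the STC2 effect at 12 h 1.27 (adjusted p = 0.0547), both no longer called.

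**Figure D3:**
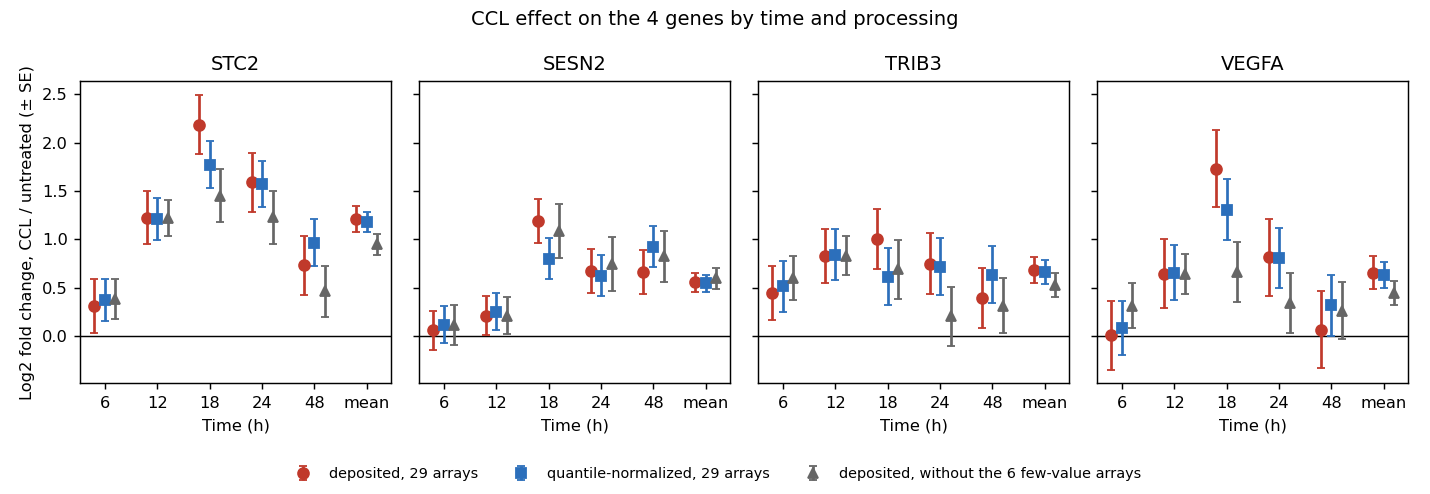
Log2 fold change of CCL over untreated cells (vertical axis, bars ± standard error of the limma model) at each time and as the mean of the 5 times, for each gene, as deposited (red circles), after quantile normalization (blue squares) and without the 6 few-value arrays (grey triangles). VEGFA at 18 h runs from 1.73 to 0.67 over the 3 fits. No few-value array is of 12 h, so the red and grey points of each gene have the same height there by design.

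Whether the CCL effect differed between times was tested directly. The moderated F-test over the 5 effects called none of the 4 genes (adjusted p = 0.45 for STC2, SESN2 and VEGFA and 0.739 for TRIB3) and 0.0153% of all genes. At an unadjusted p, STC2 (0.00131), SESN2 (0.00992) and VEGFA (0.0287) were under 0.05, as were 697 genes or 10.7%. The effect at 18 h exceeded that at 6 h by 1.88 ± 0.41 for STC2, 1.72 ± 0.54 for VEGFA, 1.13 ± 0.31 for SESN2 and 0.56 ± 0.42 for TRIB3. None passed (adjusted p = 0.139, 0.172, 0.147 and 0.40). The median of this difference over all tested genes was 0.49 as deposited, near the TRIB3 value. After quantile normalization that median was 0.023, and the 4 genes had 1.40, 1.22, 0.68 and 0.095 in the same order. The share of all genes called higher in this comparison was 0%, and 1344 had an unadjusted p under 0.05 in either direction. Of the fits that left out 1 array, that without untreated set 3 of 18 h gave the highest F for STC2 (8.91) and VEGFA (4.93). The reported fit gave 6.14 and 3.22. Without that array, untreated 18 h holds only the few-value set 1 array, whose median was the lowest of all.

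Untreated cells over time were set against the 2 untreated arrays at 0 h, which all 5 comparisons share. None of the 4 genes was called at any time. Of all genes, in either direction, 0.23% were called at 12 h and 0% at 6, 18, 24 and 48 h, where 46, 694, 320 and 82 genes had an unadjusted p under 0.05. STC2 was lower than at 0 h by point estimate at 12 h (-0.71 ± 0.31) and 18 h (-0.96 ± 0.34), with unadjusted limma p of 0.0298 and 0.0088. The medians over all tested genes were also below 0 at these times, at -0.20 and -0.26. After quantile normalization the STC2 differences were -0.43 and -0.61, against medians of 0.0895 and 0.0745. Set 1 of untreated 18 h is a few-value array. SESN2 was higher by 0.58 ± 0.23 at 6 h (unadjusted p = 0.0175).

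Across the 29 quantile-normalized arrays, which share arms and times, the 4 genes varied together to different degrees. Pearson's r was 0.74 for STC2 with VEGFA, 0.72 for STC2 with TRIB3, 0.69 for SESN2 with TRIB3, 0.69 for TRIB3 with VEGFA, 0.67 for STC2 with SESN2 and 0.33 for SESN2 with VEGFA. SESN2 and VEGFA were thus the least alike pair. Within the 13 CCL arrays r was 0.75 for TRIB3 with VEGFA, 0.63 for STC2 with TRIB3, 0.60 for STC2 with SESN2, 0.47 for STC2 with VEGFA, 0.36 for SESN2 with TRIB3 and 0.0014 for SESN2 with VEGFA. Within the 16 untreated arrays it was 0.64 for STC2 with VEGFA, 0.50 for SESN2 with TRIB3, 0.036 for STC2 with SESN2, -0.0045 for STC2 with TRIB3, -0.12 for TRIB3 with VEGFA and -0.31 for SESN2 with VEGFA. Without the few-value arrays these values changed. Over the 9 CCL arrays left, r was 0.74 for TRIB3 with VEGFA and 0.39 for STC2 with SESN2. It was -0.028 for STC2 with VEGFA, -0.080 for SESN2 with TRIB3, -0.31 for STC2 with TRIB3 and -0.45 for SESN2 with VEGFA. Over the 14 untreated arrays left, STC2 had r = 0.30 with VEGFA, 0.36 with SESN2 and 0.33 with TRIB3. There TRIB3 had 0.49 with SESN2 and 0.45 with VEGFA, and SESN2 with VEGFA had 0.037. These are descriptions of the arrays, with no test.

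The genes most like each of the 4 over the same arrays differed from gene to gene. For STC2 they were IGFBP1 (r = 0.92), SNAI2 (0.91), GDF15 (0.91), PXDC1 (0.90) and TMC6 (0.90), all at 0.83 or more over the 23 arrays with many values. For SESN2 they were IRAK2 (0.83), VAT1 (0.81), the cysteinyl-tRNA synthetase CARS1 (0.81), NUDT14 (0.80) and MKNK2 (0.79). For TRIB3 they were BAIAP2L2 (0.89), ZNF516 (0.88), SLC51B (0.88), SAT2 (0.87) and ARAF (0.86). For VEGFA they were SPAG9 (0.87), RAI14 (0.84), RDH10 (0.81), RB1CC1 (0.81) and GCKR (0.81), and GCKR dropped to 0.59 over the 23 arrays. No gene appears for more than 1 of the 4.

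The relatives of the 4 genes did not follow them as a group. Of 9 listed, 4 were tested over the mean of the 5 times, of which 1 was called higher and 1 lower, with a median effect of 0.073 against 0.015 for all tested genes. For this and the following lists, the share of all tested genes called in the mean was 13.6% higher and 11% lower as deposited. The shares without the few-value arrays stand with the mean effects of the 4 genes above. TRIB1, the tribbles pseudokinase that steers C/EBP factors to degradation, rose by 1.08 ± 0.14 (adjusted p = 1.83e-06, limma). SESN1, the sestrin best known as a p53 target, fell by 0.79 ± 0.19 (adjusted p = 0.00316), opposite to SESN2. The VEGF ligands VEGFB (0.18 ± 0.10) and PGF (-0.039 ± 0.14) were not called. Over the other 23 arrays TRIB1 and SESN1 kept their calls (0.84 and -0.57). STC1, SESN3, TRIB2 and VEGFC did not pass the filter, with highest levels of 3.08, 4.95, 5.10 and 3.56, and VEGFD had no named probe set. Of the 5 VEGF receptors and coreceptors, FLT1, KDR, FLT4 and NRP2 were under the filter, with highest levels of 3.57, 2.83, 3.58 and 4.84. The coreceptor NRP1 was not called as deposited (0.23 ± 0.14, adjusted p = 0.24), but was without the few-value arrays (0.43 ± 0.15, adjusted p = 0.0456).

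Upstream of the 4 genes, the transcription factors of the response differed among themselves. Of 8 listed, 4 were tested and 3 called higher in the mean, with a median of 0.40. ATF4 mRNA rose by 0.44 ± 0.13 (adjusted p = 0.0179, limma), with effects of -0.13 at 6 h, 0.43 at 12 h, 1.45 at 18 h, 0.46 at 24 h and -0.019 at 48 h, of which the 18 h effect was called (adjusted p = 0.00396). The factors ATF3 and JDP2 rose by 0.85 ± 0.23 and 0.36 ± 0.13, and ATF5 was not called (-0.16 ± 0.10). DDIT3, which encodes the death-promoting factor CHOP, was under the filter with a highest level of 4.87. Over the other 23 arrays 1 of the 4 was called, ATF3 at 0.77 ± 0.12, while ATF4 had a mean effect of 0.14 ± 0.09 (adjusted p = 0.269) and an 18 h effect of 0.50 ± 0.22 (adjusted p = 0.346). Array levels of ATF4 mRNA carry no information on its translation. Of the eIF2alpha kinases, all 4 were tested and EIF2AK4, the amino acid sensor GCN2, fell by 0.34 ± 0.12 (adjusted p = 0.0352), and the list's median was -0.16.

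Other ATF4 targets mostly went the way of the 4 genes as deposited. Of 13 listed, 7 were tested and 5 were called higher in the mean, none lower, with a median of 0.50. GDF15, a stress cytokine, rose most (2.18 ± 0.13, adjusted p = 1.5e-11, limma) and was called at each of the 5 times. DDIT4, an mTORC1 inhibitor, rose by 0.66, the translation repressor gene EIF4EBP1 by 0.50, KLHL24 by 0.49 and BBC3, encoding the death protein PUMA, by 0.43. When those arrays were left out 2 of the 7 were called, GDF15 (1.84) and DDIT4 (0.61), with a median of 0.29. Of 12 listed amino acid enzymes 8 were tested, with a median of 0.14. The cysteine enzyme CTH (0.79), asparagine synthetase ASNS (0.59) and the one-carbon enzyme SHMT2 (0.29) rose and the serine enzyme PSPH fell (-0.49). In the fit of the other 23 arrays 1 was called higher (CTH, 0.58) and 2 lower. No amino acid transporter of the 8 listed had a named probe set.

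**Figure D4:**
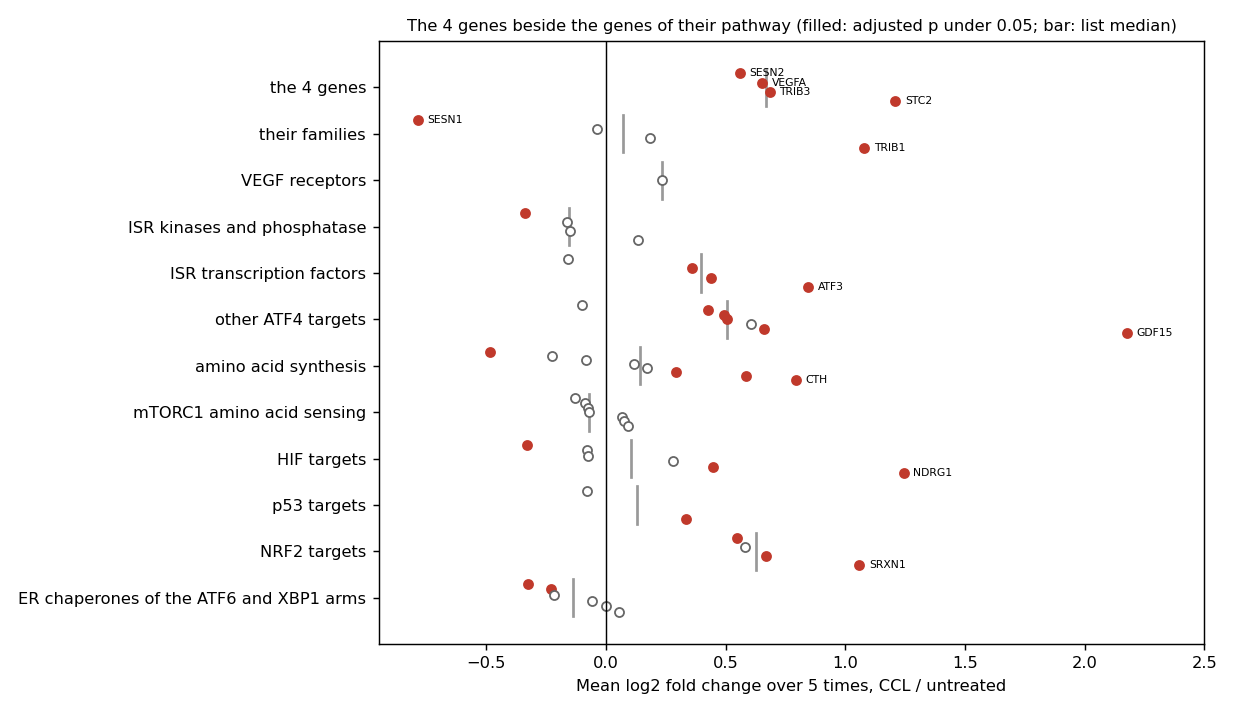
Mean CCL effect over the 5 times (horizontal axis, log2 fold change) of the tested genes of each list, with filled points for an adjusted p under 0.05 and a grey bar at the list's median (ISR, integrated stress response). The 4 genes lie between 0.56 and 1.21, GDF15 at 2.18 and SESN1 at -0.79.

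The other programmes that share these genes were mixed, and only part of each list was tested. Tested were 6 of 15 listed HIF targets, 4 of 8 NRF2 targets, 2 of 10 p53 targets and 6 of 13 ER chaperone genes. The rest were under the filter or had no named probe set. HSPA5 and HSP90B1 of the ER list, NQO1 of the NRF2 list and CDKN1A and MDM2 of the p53 list had none. The mTORC1 amino acid sensing list, through which SESN2 acts, had 0 of 7 tested genes called by limma, 0 also at an unadjusted p under 0.05, and a median of -0.070. Of 6 tested HIF targets, NDRG1 (1.24) and ADM (0.45) rose and EPO fell (-0.33), with a median of 0.10. In the fit of 23 arrays 2 of the 6 were called higher and none lower. Of 4 tested NRF2 targets, SRXN1 (1.06), OSGIN1 (0.67) and TXNRD1 (0.54) rose, with a median of 0.63, and 3 were called higher without the few-value arrays. Of 2 tested p53 targets, TP53I3 rose (0.33 ± 0.12, adjusted p = 0.044), and neither was called without the few-value arrays. Of 6 tested ER chaperone genes, which mark the ATF6 and XBP1 arms of ER stress, none rose and SDF2L1 (-0.32) and CALR (-0.23) fell, with a median of -0.14. Neither was called without the few-value arrays. Of the 6 hepatocyte markers TTR (-0.43) and APOA1 (-0.39) fell.

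After quantile normalization the listed genes were counted again over the mean of the 5 times, against 16.5% of all genes called higher and 18.9% lower. The relatives had 2 of 4 called higher, with VEGFB (0.17, adjusted p = 0.0392, limma) added to TRIB1, and 1 lower. The receptors and the mTORC1 list had none called. Of the transcription factors 2 of 4 were called higher, and JDP2 lost its call (0.36, adjusted p = 0.0505). Of the kinases 2 of 4 were called lower, with EIF2AK1, the heme sensor, at -0.23 (adjusted p = 0.0452). The other ATF4 targets had 6 of 7 called higher, VLDLR being gained (0.62, adjusted p = 0.0302), and the amino acid enzymes 3 higher and 2 lower of 8, with the serine enzyme PSAT1 at -0.29 (adjusted p = 0.00812). HIF targets had 3 higher and 1 lower of 6, with the histone demethylase KDM3A gained (0.26, adjusted p = 0.0257). The NRF2 list had 3 of 4 and the p53 list 1 of 2 called higher, and the ER chaperones and the hepatocyte markers each had 2 of 6 called lower.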

How the data were processed

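RNA from HepG2 cells was measured on Affymetrix arrays. The authors deposited log2 values for each probe set. The submitters' processing notes name Affymetrix Expression Console 1.1 and RMA, but which arrays were normalized together and the genome build are not given in the sources used here. For arrays, their number limits the precision. Gene names came from the platform's probe table. Where a gene had several probe sets the brightest on average was used, and 6529 named genes exceeded log2 5 on 2 or more arrays and were tested.

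The group means of all 29 arrays were estimated together in R 4.3.3 with lmFit and eBayes of limma 3.58.1, after a check on data made with known changes. The p-values are two-sided and were adjusted by Benjamini-Hochberg over the genes tested in each comparison. Separate cultures are not stated in the labels, so p-values cover only the spread between these arrays, which may be technical.

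The 4 genes and the gene lists were chosen with earlier results of these data known. Beside the 4 genes, list genes were named if called in the mean over the 5 times, or if relatives, receptors or transcription factors, as were the 5 tested genes with the highest correlation to each. Further genes (markers and genes under the filter) were named to account for their lists. Alternatives were quantile normalization, median centring, fits of the compared arrays, set as a block, other filters, every probe set, array weights (gene by gene) and leaving out each array. Chosen after seeing the data were fits without the few-value arrays (under 10000 distinct values), without set 3, with shared sets only, and quantile normalization combined with the first or with the block.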

Additional observations from a re-analysis of the deposited data

How the results depend on the processing

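Over 956 alternative fits of the 24 effects of the 4 genes, 894 kept direction and side of the threshold, 34 lost a call, 15 gained one and 13 changed sign, the last all among effects near 0 that were never called. Of 156 alternative mean effects, 155 stayed called and positive, and VEGFA with array weights (0.48) was the exception. Sign changes were VEGFA at 6 h with array weights (-0.063) and without set 3 (-0.28), VEGFA at 48 h with array weights (-0.037), without set 3 (-0.029) and with shared sets only (-0.029), and SESN2 at 12 h without set 3 (-0.051). Leaving out 1 array gave -0.29 to 0.31 for VEGFA at 6 h, -0.13 to 0.26 for VEGFA at 48 h, -0.066 to 0.13 for SESN2 at 6 h and -0.0375 to 0.34 for SESN2 at 12 h.

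The number of the 4 genes called higher is given with that of all tested genes called higher in the same fit. At 12 h it was 1 of 68 in the reported fit, 3 of 614 with array weights, 2 of 282 without the few-value arrays, 3 of 270 with these left out and quantile normalization, and 0 of 35 without set 3. At 18 h it was 4 of 803 in the reported fit, 2 of 134 with median centring, 1 of 57 with only the compared arrays, 0 of 7 with array weights, 1 of 48 without the few-value arrays and 1 of 68 with quantile normalization too. The genes still called at 18 h were STC2 and VEGFA with median centring and STC2 with only the compared arrays. At 24 h the number was 1 of 166 in the reported fit and 0 of 40 with only the compared arrays. At 48 h it was 0 of 87 in the reported fit, 2 of 338 with quantile normalization and 2 of 187 with median centring. With set as a replicate block it was 2 of 409 at 24 h, TRIB3 being added (0.87, adjusted p = 0.0496), and 1 of 208 at 48 h, SESN2 (0.65, adjusted p = 0.0421), and with quantile normalization and the block 2 of 540 and 2 of 501. Same-numbered sets were not treated as paired in the reported fit, because the labels name nothing that they share beyond the number. Their deviations did correlate above 0.1 in 9 of 12 pairs, and best with their own number in 7 of 12 cases. The block fit allows for such sharing, and at 18 h it called 4 of 1531. Leaving out 1 array gave 0 to 1 genes at 12 h, 1 to 4 at 18 h, 0 to 1 at 24 h and 0 to 1 at 48 h, and F statistics between times of 4.35 to 8.91 for STC2 and 1.54 to 4.93 for VEGFA. Genes called higher at 18 h ran from 7 (array weights) to 2634 (without untreated set 3). The fit with array weights used all 29 arrays. The fit without untreated set 3 of 18 h left only the few-value set 1 array in that group. The cause of these differences between fits was not tested.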
